A study of Mus musculus with 12 samples.

Results

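The 10 genes described here belong to the Notch pathway and were followed through bone marrow stroma that was taken fresh, cultured, or cultured with 5 added genes. They were picked by symbol: the ligands Jag1, Jag2, Dll1 and Dll4, the receptors Notch1, Notch2, Notch3 and Notch4, and the target genes Hey1 and Heyl. All 10 were found among the 24062 symbols of every count file, and all 10 passed the filter on low counts that left 15163 genes for testing.

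RNA was sequenced in 12 libraries from C57BL/6J mice, 3 in each of 4 groups, each library made from 1000 to 5000 sorted cells. The rMSC group was cultured stroma that carried Klf7, Ostf1, Xbp1, Irf3 and Irf7 together, and the name stands for revitalized mesenchymal stromal cells. The control group was the same kind of cultured stroma with a control vector. Per the growth protocol, cultures were started from reporter-positive stromal cells and kept in medium with 20% serum and 10 ng/ml basic fibroblast growth factor. The GFPpos group was freshly sorted cells that carried a green fluorescent reporter of Scf, the gene for stem cell factor (Kitl in the files). The GFPneg group was freshly sorted cells without that reporter. In both fresh groups, cells with CD45, Ter119 or CD31 on their surface, which mark blood cells, red cell precursors and endothelium, had been sorted out. GFPneg is thus what remains of the marrow after that sort, not a stromal cell type. No untransduced culture is among the samples, so the effect of the vector itself cannot be told apart from that of culture.

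Notch receptors are membrane proteins that meet ligands of the Jagged and Delta-like families on neighbouring cells. Once bound, the receptor is cut, and its inner part moves to the nucleus, joins the DNA-binding protein Rbpj and switches on genes of the Hes and Hey families, which are repressors. In the marrow, Jagged and Delta-like ligands on stromal and endothelial cells are known to reach blood-forming cells, and Notch3 is a receptor of pericytes and vascular smooth muscle.

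The promoters of Jag1 and Notch3, which moved in opposite directions in rMSC against control, are shown with that of Hey2, a further Notch target, because the Rbpj core motif can be seen in the last of these. The sequences are RefSeq's for GRCm38.p6, from 250 bases before to 50 bases after the start site, and capitals mark the core motif TGGGAA or, on the other strand, TTCCCA.
Jag1 promoter, chr2:137116471-137116770, minus strand: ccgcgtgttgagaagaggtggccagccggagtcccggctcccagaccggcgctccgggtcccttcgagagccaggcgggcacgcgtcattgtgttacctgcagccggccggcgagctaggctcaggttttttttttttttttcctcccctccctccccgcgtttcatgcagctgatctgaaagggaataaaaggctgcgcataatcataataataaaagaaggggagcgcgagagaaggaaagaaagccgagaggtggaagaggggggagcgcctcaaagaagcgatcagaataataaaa
Notch3 promoter, chr17:32166841-32167140, minus strand: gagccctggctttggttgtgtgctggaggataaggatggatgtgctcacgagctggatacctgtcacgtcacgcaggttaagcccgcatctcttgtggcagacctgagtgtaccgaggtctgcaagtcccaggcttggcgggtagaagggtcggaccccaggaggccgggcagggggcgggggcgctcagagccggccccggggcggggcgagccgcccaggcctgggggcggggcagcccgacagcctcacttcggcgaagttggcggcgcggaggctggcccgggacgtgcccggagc
Hey2 promoter, chr10:30842734-30843033, minus strand: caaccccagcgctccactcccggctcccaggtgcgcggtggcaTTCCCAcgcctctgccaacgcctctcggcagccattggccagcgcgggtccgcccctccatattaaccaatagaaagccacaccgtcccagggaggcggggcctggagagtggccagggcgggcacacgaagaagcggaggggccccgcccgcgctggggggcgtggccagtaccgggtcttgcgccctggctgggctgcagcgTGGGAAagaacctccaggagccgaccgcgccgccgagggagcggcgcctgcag
TGGGAA was present on either strand in 8397 of 32851 mouse promoter windows of 300 bases (25.6%), and GTGGGAA, which contains it, in 2097 (6.38%). The RefSeq table matched 8 of the 10 genes with 9 windows, and 0 of the 9 held the motif. The Hey2 window held it 2 times, the first at position -207 from the start site. For the other Notch targets Nrarp, Hes7 and Hes5, the windows held it 0, 1 and 2 times. A match is a description of the letters in a window and no evidence of binding, and no match says nothing about Rbpj.

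On GRCm38 the ligand genes lie on chromosomes 2 (Jag1, 137081456 to 137116644, minus strand), 12 (Jag2, 112907819 to 112929776, minus strand), 17 (Dll1, 15367354 to 15376872, minus strand) and 2 (Dll4, 119325784 to 119335962, plus strand). The receptor genes lie on chromosomes 2 (Notch1, 26457903 to 26516663, minus strand), 3 (Notch2, 98013527 to 98150361, plus strand), 17 (Notch3, 32120820 to 32166852, minus strand) and 17 (Notch4, 34564268 to 34588503, plus strand). Hey1 lies on chromosome 3 (8663359 to 8667256, minus strand) and Heyl on chromosome 4 (123233556 to 123249875, plus strand). Exons of Dll1, Dll4, Notch1 and Notch3 share 867, 214, 1068 and 488 bases with a gene on the opposite strand in the GENCODE annotation. Exons of Notch2 share 541 bases with a gene on its own strand. A second gene on the opposite strand shares 414 bases with Notch1. Of these overlapping genes only Gm14207, opposite Dll4, is among the symbols of the count files, with 17 counts over all libraries. Whether reads were counted by strand is not given in the sources used here, so it cannot be told from which gene reads in these stretches came.

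Depth was 60507051 to 85353566 counts per library, over 13639 to 15461 detected genes. No 2 libraries of a group were identical or within sampling noise of each other. The 5 transduced genes were each higher in rMSC than in control, by 0.85 (Xbp1) to 4.56 (Irf3) on the log2 scale. Whether replicates stand for separate animals or cultures is not stated, so each p-value measures the spread between libraries, which may be technical. Markers of other cell types were present in the fresh libraries. The summed level of 8 erythroid markers was 911 to 1640 CPM (counts scaled to library size) in GFPpos, against 5580 to 5950 CPM in GFPneg. CD31-positive cells had been sorted out, yet 13 endothelial markers summed to 216 to 434 CPM in GFPpos, against 65.2 to 93.6 CPM in GFPneg. Egfl7 and Vwf together made up most of the GFPneg sum, and Vwf most of that in replicates 2 and 3 of GFPpos. All 13 markers had a count in replicate 1 of both fresh groups. For 7 markers of perivascular stroma the sum was 1980 to 2070 CPM in rMSC, 6820 to 7000 in control, 29700 to 44800 in GFPpos and 0.155 to 40.8 in GFPneg. Measurements on bulk RNA cannot tell apart fewer cells of a type from less RNA per cell.

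Levels are given in CPM scaled by library size factors (TMM), per library in the order of replicates 1 to 3, or as mean ± SD with n = 3. Levels of different genes are compared only as CPM per kilobase of exon. A log2 fold change is that of the group named first over the group named second. The value after its ± is its absolute size over the square root of the F statistic of the test. That is an approximate standard error, and it can be too small where a group has few counts. A gene is said to have risen or fallen where its adjusted p was under 0.05 (edgeR quasi-likelihood test, Benjamini-Hochberg over 15163 genes).

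**Figure D1:**
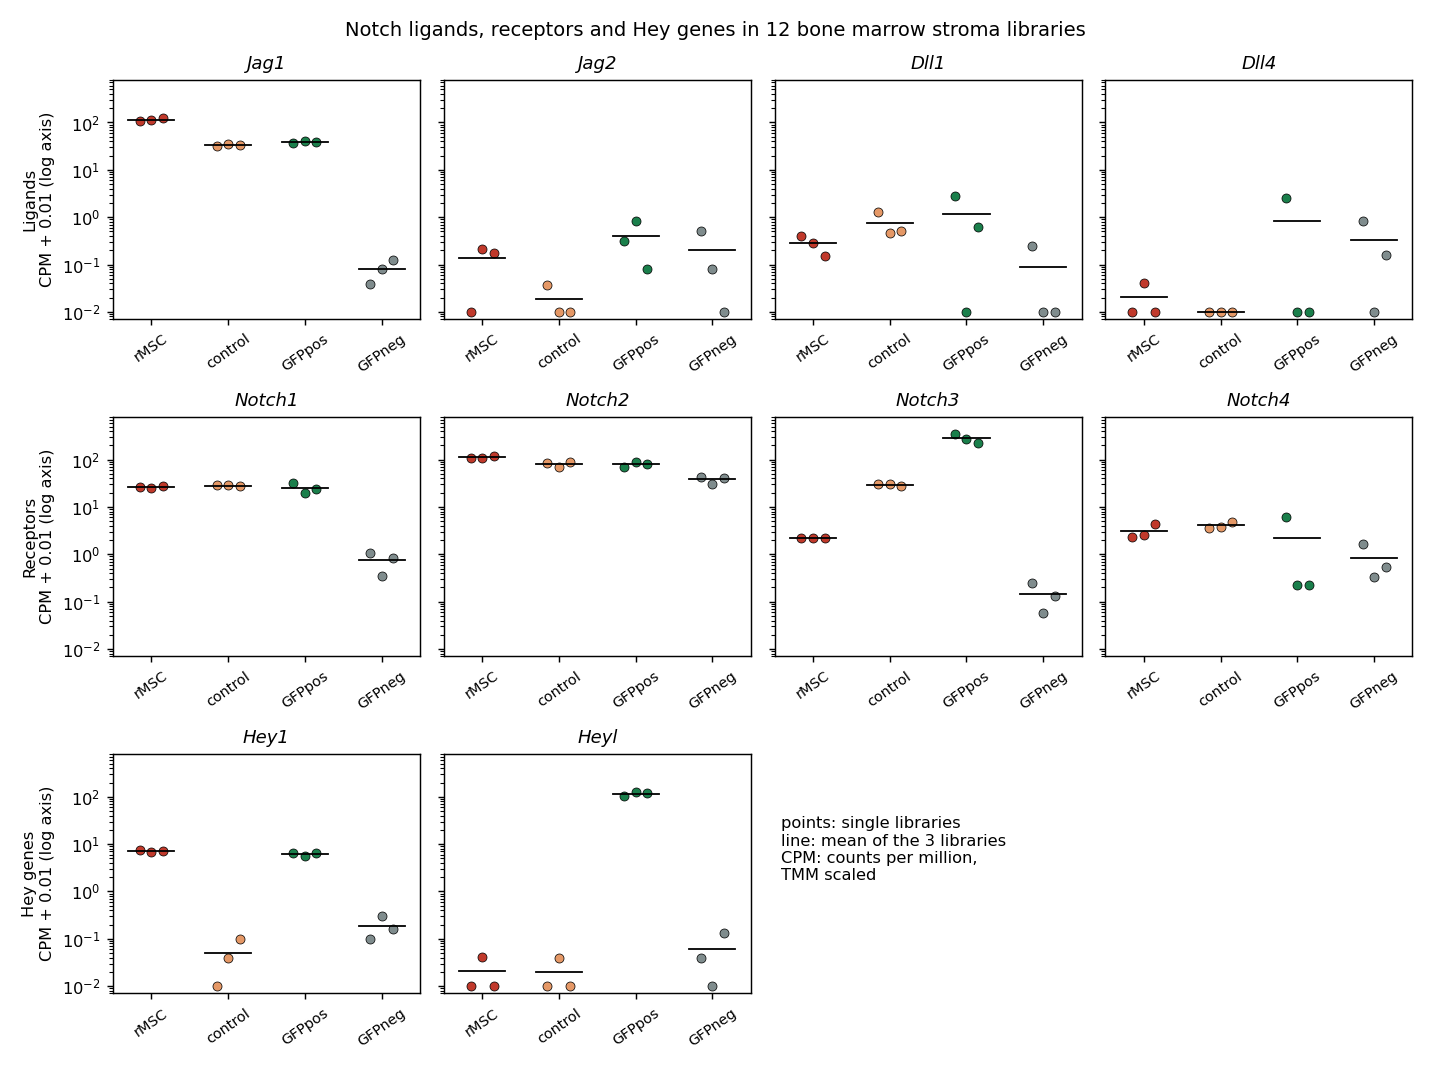
Level of each of the 10 genes in CPM + 0.01 on a log axis, with a point for each library and a line at the mean of the 3 libraries of rMSC, control, GFPpos and GFPneg. Jag1 sits highest in rMSC, Notch3 and Heyl sit highest in GFPpos, and Jag2, Dll1 and Dll4 stay at or under 2.80 CPM in all 12 libraries.

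The 4 comparisons ask what the 5 genes changed in culture (rMSC against control), how far each culture stood from fresh stroma (rMSC and control against GFPpos), and what marked the reporter-positive cells among the sorted cells (GFPpos against GFPneg). They share libraries: rMSC and control each enter 2 of them and GFPpos enters 3. In rMSC against control, 3 of the 10 genes rose and 1 fell, where 24.5% of all genes tested rose and 25.5% fell (50.1% in either direction). In rMSC against GFPpos, 2 rose and 2 fell, where 33.4% of all genes rose and 38.2% fell (71.6%). In control against GFPpos, 5 fell and the other 5 did not pass, where 32.5% of all genes rose and 35.9% fell (68.3%). In GFPpos against GFPneg, 6 rose and the other 4 did not pass, where 40.5% of all genes rose and 36.5% fell (77.0%). The shares of the 10 genes that changed were thus 4, 4, 5 and 6 of 10, all under those of all genes. Whether the 10 genes changed less often than others was not tested, and Jag2, Dll1 and Dll4 had few counts in most libraries. The groups did not overlap for 5 of the 10 genes in rMSC against control, where this was so for 71.7% of all genes, and for 5 in rMSC against GFPpos (73.9%), 5 in control against GFPpos (71.4%) and 6 in GFPpos against GFPneg (75.3%). The median log2 fold change of the 10 genes was 0.27 in rMSC against control, beside -0.01 over all genes tested. Without Dll4, which was at or under 3 counts per library there, it was 0.09. That is the value of Heyl (0.09 ± 1.87), which was also under 3 counts per library there, with 2 counts in each group. The median of the 10 genes was -0.78 in rMSC against GFPpos (all genes -0.08). It was -1.94 in control against GFPpos (all genes -0.04) and 4.48 in GFPpos against GFPneg (all genes 0.08).

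**Figure D2:**
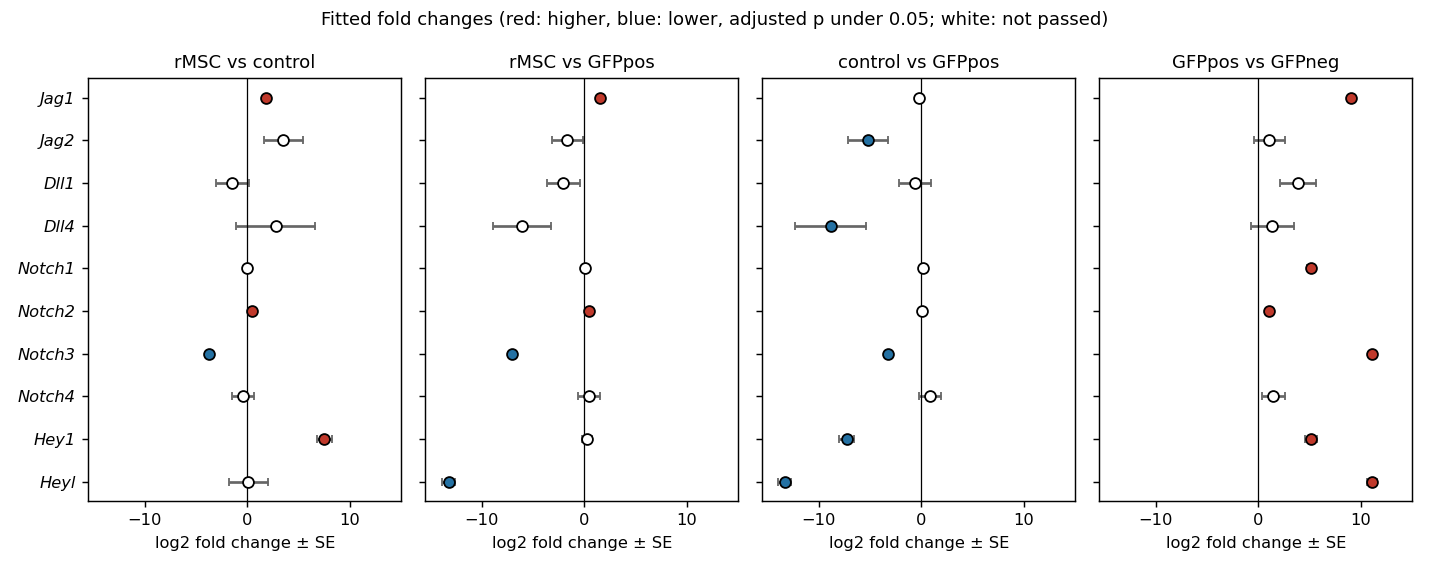
Log2 fold change with its approximate standard error (its absolute size over the square root of F) for each of the 10 genes. Each of the 4 comparisons is drawn, with points filled where the adjusted p was under 0.05 (edgeR). Notch3 lies at -3.76 in rMSC against control and at 11.07 in GFPpos against GFPneg, and values of genes with a group near 0 counts (Dll4, Heyl, Hey1 in control) depend on the prior count of the fit.

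Jag1 made up nearly all RNA of the 4 ligands in the cultures, and it was higher in rMSC than in either other stromal group. Jagged1 is a ligand of the Notch receptors and is expressed by osteolineage and endothelial cells of the marrow. Jag1 had 109.5, 110.6 and 124.0 CPM in rMSC, 31.4, 34.4 and 33.3 CPM in control, 36.6, 41.6 and 39.3 CPM in GFPpos, and 0.0295, 0.0716 and 0.112 CPM in GFPneg. Every rMSC library lay above every other library, and every control library lay below every GFPpos library. Jag1 rose 3.47-fold in rMSC against control (log2 fold change 1.80 ± 0.12, adjusted p = 7.39e-07) and 2.93-fold in rMSC against GFPpos (1.55 ± 0.12, adjusted p = 6.60e-07). The difference of control from GFPpos did not pass (-0.25 ± 0.12, adjusted p = 0.0842), although the groups did not overlap. It passed in the fit of those 6 libraries alone (adjusted p = 0.0404), in DESeq2 (0.0121) and without replicate 1 of GFPpos (0.0420) or of GFPneg (0.0348). GFPneg held little of it: GFPpos against GFPneg gave 9.03 ± 0.20 on the log2 scale (adjusted p = 1.42e-10), with 7464 counts in the 3 GFPpos libraries and 17 in the 3 GFPneg libraries.

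Per kilobase of exon, Jag1 made up 99.5 to 99.7% of the RNA of the 4 ligands in rMSC, 94.7 to 98.2% in control and 82.3 to 98.4% in GFPpos. The 82.3% was replicate 1 of GFPpos, where Dll1 made up 8.69% and Dll4 8.42%. The summed level of the 4 ligands was 18.9, 19.1 and 21.3 CPM per kilobase in rMSC, 5.70, 6.01 and 5.84 in control, and 7.63, 7.26 and 6.90 in GFPpos. In GFPneg the sum was 0.348, 0.0226 and 0.0579 CPM per kilobase, so that shares there rest on few counts.

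Jag2 and Dll1, ligands of the same 2 families, were near the limit of detection in most libraries. Jag2 had 0, 13 and 12 counts in rMSC, 2, 0 and 0 in control, 24, 45 and 4 in GFPpos, and 34, 6 and 0 in GFPneg. The control libraries stood low, with 2 counts in all, while GFPneg overlapped rMSC and GFPpos. Jag2 fell in control against GFPpos (adjusted p = 0.0354), with a ratio of summed CPM of 0.0249 (95% interval 0.00296 to 0.0931, counting error only). This call did not hold without replicate 2 of GFPpos (adjusted p = 0.0994), without any 1 of the control libraries (0.0553 to 0.110), or without replicate 2 or 3 of rMSC (0.0510 and 0.0524). In rMSC against control the ratio of Jag2 was 13.49 (95% interval 3.36 to 118), and the test did not pass (adjusted p = 0.156). Its log2 fold change was -1.65 in rMSC against GFPpos (adjusted p = 0.354) and 1.06 in GFPpos against GFPneg (adjusted p = 0.539).

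Dll1 had 24, 18 and 10 counts in rMSC, 95, 32 and 34 in control, 226, 0 and 34 in GFPpos, and 16, 0 and 0 in GFPneg. All 3 control libraries lay above all 3 rMSC libraries, and GFPpos spanned the whole range. The log2 fold change of Dll1 in rMSC against control was -1.45 ± 1.59 (adjusted p = 0.485), and in the fit of those 6 libraries alone it was -1.47 (adjusted p = 0.0243). Dll1 did not pass in rMSC against GFPpos (-2.06 ± 1.61, adjusted p = 0.270), control against GFPpos (-0.61 ± 1.54, adjusted p = 0.737) or GFPpos against GFPneg (3.87 ± 1.77, adjusted p = 0.0671). The last was 1.96 without replicate 1 of GFPpos (adjusted p = 0.312), which held most of its counts there, and it passed without replicate 1 of GFPneg (9.30, adjusted p = 0.0115) and without replicate 2 of GFPpos (4.45, 0.0203). Without replicate 1 of GFPpos, Dll1 was at -0.15 in rMSC against GFPpos (adjusted p = 0.945) and at 1.30 in control against GFPpos (0.507).

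Dll4, a ligand known from sprouting and arterial endothelium, had most of its counts in the first replicate of the fresh groups. It had 0, 2 and 0 counts in rMSC, 0, 0 and 0 in control, 200, 0 and 0 in GFPpos, and 56, 0 and 12 in GFPneg. The 200 counts of replicate 1 of GFPpos equal 2.48 CPM. Dll4 was called lower in control than in GFPpos (adjusted p = 0.0489), at least 19.4-fold against a floor of 3 counts per library. Without replicate 1 of GFPpos both groups stood at 0, and the call was also lost without any 1 of the control libraries, of the rMSC libraries, or replicate 3 of GFPneg (adjusted p 0.0645 to 0.103). In rMSC against GFPpos Dll4 did not pass (adjusted p = 0.0806), nor in GFPpos against GFPneg (1.36 ± 2.10, adjusted p = 0.577). Both cultures were at or under the floor.

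Within each fresh group, the library with the most Dll4 and Notch4 also held the most endothelial marker RNA other than Vwf. Without Vwf, which megakaryocytes share, 12 endothelial markers summed to 186, 102 and 87.1 CPM in GFPpos and 65.2, 47.6 and 39.4 CPM in GFPneg. Most of the GFPneg sums was Egfl7 alone, with 43.9, 43.6 and 38.8 CPM there and 26.6, 13.7 and 12.3 CPM in GFPpos. All 12 markers had a count in replicate 1 of either fresh group, while 11 and 9 had one in the other GFPpos libraries and 5 and 4 in the other GFPneg libraries. Across the groups the levels did not go together: replicates 2 and 3 of GFPpos had higher sums than every GFPneg library, but no Dll4 and the lowest Notch4. With Vwf, at 29.3, 333 and 258 CPM in GFPpos, replicate 1 had the lowest sum of its group (216, 434 and 345 CPM). Replicate 1 was the highest library of its group for 9 of the 13 markers in GFPpos and 10 of 13 in GFPneg. Cdh5, the cadherin of endothelial junctions, had 4.97, 0.875 and 0 CPM in GFPpos and 1.21, 0 and 0 CPM in GFPneg, whereas the endothelial receptor Tie1 had 9.59, 16.2 and 10.5 CPM in GFPpos and 3.75, 0.597 and 0 CPM in GFPneg. In the cultures, 12 markers summed to 2.73 to 2.94 CPM in rMSC and 14.6 to 15.9 CPM in control. Of the 13, 3 (Cdh5, Robo4 and Tie1) were at 0 in all 6 culture libraries, while Tek had 7.38 to 8.82 CPM in control, above replicates 2 and 3 of GFPpos (2.50 and 2.12 CPM). A high replicate 1 was not particular to endothelial markers. Replicate 1 also had the highest sum of its group for granulocyte markers. That sum was 3755, 1169 and 756 CPM in GFPpos and 1270, 698 and 1007 CPM in GFPneg. The same held for the monocyte and macrophage markers and for the T and B cell markers. It did not hold in both groups for the erythroid, megakaryocyte or pan-haematopoietic markers. The part of endothelial or blood-cell RNA in the levels of Dll4 and Notch4 was not tested.

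**Figure D3:**
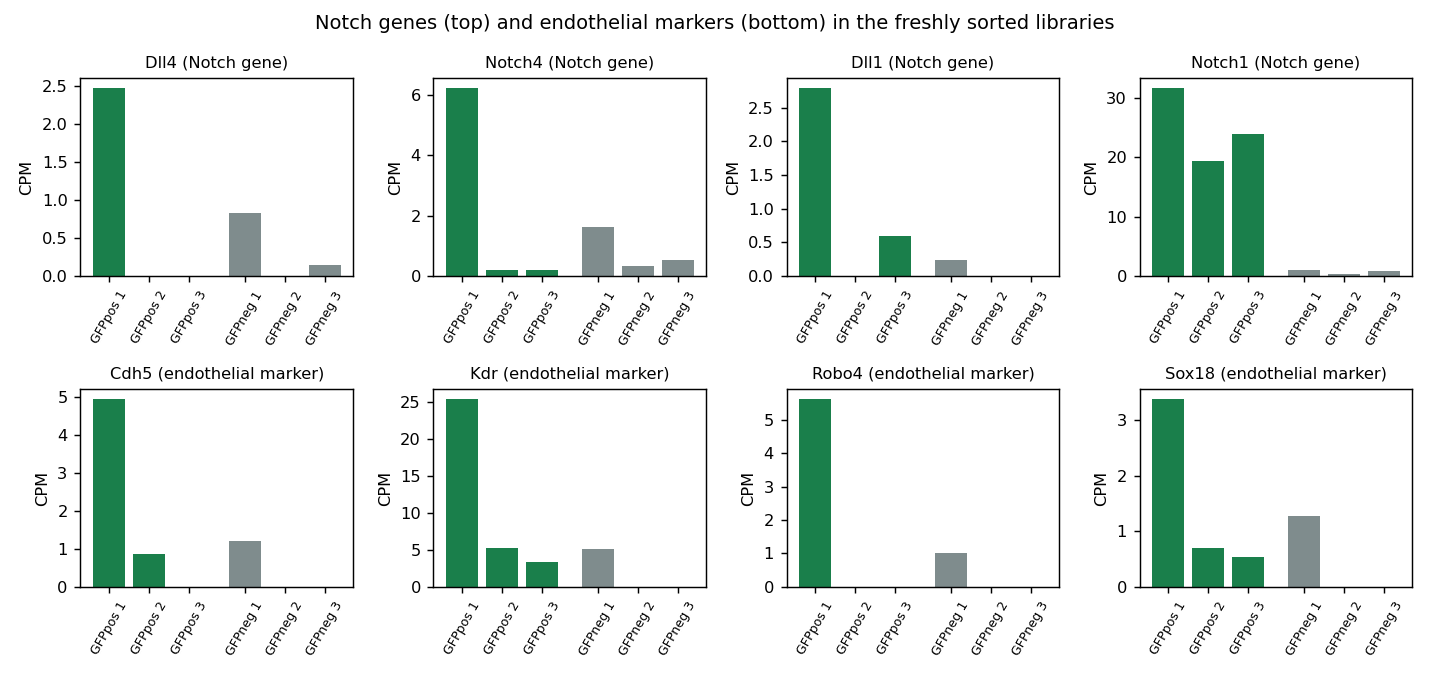
CPM of Dll4, Notch4, Dll1 and Notch1 (top) and of the endothelial markers Cdh5, Kdr, Robo4 and Sox18 (bottom) in GFPpos and GFPneg. Bars stand for single libraries. Replicate 1 is the highest library of its group in all of them, with Dll4 at 2.48 CPM in GFPpos replicate 1 and at 0 in GFPpos replicates 2 and 3. Over all 13 endothelial markers, most of them not drawn, replicate 1 was highest for 9 in GFPpos and 10 in GFPneg.

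Notch3 set the groups apart more than any other receptor. It was the main receptor of fresh reporter-positive stroma, was lower in control stroma and was lower again in rMSC. Notch3 had 2.16, 2.19 and 2.20 CPM in rMSC, 30.9, 30.03 and 27.9 CPM in control, 349, 278 and 225 CPM in GFPpos, and 0.236, 0.0478 and 0.124 CPM in GFPneg. No 2 groups overlapped, and the order from high to low was GFPpos, control, rMSC and GFPneg. Notch3 was 13.6-fold lower in rMSC than in control (log2 fold change -3.76 ± 0.22, adjusted p = 2.74e-07). It was 130-fold lower in rMSC than in GFPpos (-7.02 ± 0.25, adjusted p = 3.43e-09) and 9.59-fold lower in control than in GFPpos (-3.26 ± 0.20, adjusted p = 2.21e-07). It rose in GFPpos against GFPneg by 11.07 ± 0.32 on the log2 scale (adjusted p = 4.27e-10), and by 11.68 without replicate 1 of GFPneg.

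Jag1 and Notch3 thus differed in opposite directions in rMSC against control. The level of Jag1 over that of Notch3, both per kilobase, was 70.5, 70.1 and 78.2 in rMSC, 1.41, 1.59 and 1.66 in control, and 0.146, 0.208 and 0.242 in GFPpos. These 3 ranges did not overlap, which for rMSC follows from the levels of the 2 genes given above and is no further result. In GFPneg the ratio was 0.174, 2.08 and 1.25, resting on 17 counts of Jag1 and 30 of Notch3 in all.

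Notch2, a receptor found widely in blood-forming and stromal cells, varied least of the 4 receptors across the groups. It had 107.9, 106.3 and 121 CPM in rMSC, 86.8, 69.1 and 89.8 CPM in control, 71.4, 88.2 and 79.8 CPM in GFPpos, and 43.9, 31.2 and 40.7 CPM in GFPneg. Every rMSC library lay above all others and every GFPneg library below, while control and GFPpos overlapped. Notch2 rose in rMSC against control (0.45 ± 0.14, adjusted p = 0.0207) and in rMSC against GFPpos (0.49 ± 0.14, adjusted p = 0.00918). The first call was lost without replicate 2 of control (0.34, adjusted p = 0.0861) or replicate 3 of rMSC (0.39, adjusted p = 0.0773). Control and GFPpos differed by 0.04 ± 0.14 (adjusted p = 0.822). Notch2 rose in GFPpos against GFPneg (1.05 ± 0.14, adjusted p = 4.22e-05).

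Notch1, the receptor best known from lymphocyte development, was not told apart among the 3 stromal groups. It had 26.8, 25.4 and 28.0 CPM in rMSC, 28.6, 28.8 and 27.1 CPM in control, 31.7, 19.4 and 24.0 CPM in GFPpos, and 1.05, 0.334 and 0.833 CPM in GFPneg. The 3 stromal groups overlapped, and all lay above GFPneg. The log2 fold change was -0.08 ± 0.28 in rMSC against control (adjusted p = 0.862), 0.10 ± 0.28 in rMSC against GFPpos (adjusted p = 0.774) and 0.17 ± 0.28 in control against GFPpos (adjusted p = 0.601). Notch1 rose in GFPpos against GFPneg by 5.09 ± 0.34 (adjusted p = 1.85e-07).

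Notch4, a receptor known mainly from endothelium, was low and uneven in fresh cells. It had 2.32, 2.61 and 4.26 CPM in rMSC, 3.62, 3.74 and 4.89 CPM in control, 6.22, 0.219 and 0.212 CPM in GFPpos, and 1.63, 0.322 and 0.535 CPM in GFPneg. Replicate 1 of GFPpos was the highest library of all, and the other GFPpos libraries were the lowest. Notch4 did not pass in rMSC against control (-0.41 ± 1.07, adjusted p = 0.791), rMSC against GFPpos (0.46 ± 1.08, adjusted p = 0.720), control against GFPpos (0.87 ± 1.08, adjusted p = 0.490) or GFPpos against GFPneg (1.44 ± 1.11, adjusted p = 0.256). Without replicate 1 of GFPpos it was higher in rMSC (3.82, adjusted p = 0.000837) and in control (4.24, adjusted p = 0.000525) than in GFPpos, and its difference between GFPpos and GFPneg was -1.92 (adjusted p = 0.0252).

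Receptor make-up, per kilobase of exon, differed between fresh and cultured stroma. Notch2 made up 80.2 to 80.6% of the RNA of the 4 receptors in rMSC, 50.8 to 58.3% in control, 12.5 to 20.0% in GFPpos and 93.0 to 97.7% in GFPneg. Notch3 made up 1.94 to 2.21% in rMSC, 24.2 to 29.5% in control, 75.4 to 81.8% in GFPpos and 0.199 to 0.668% in GFPneg. The summed level of the 4 receptors was 12.4, 12.2 and 14.0 CPM per kilobase in rMSC, 14.3, 12.6 and 14.3 in control, 52.8, 44.0 and 37.0 in GFPpos, and 4.37, 2.96 and 3.92 in GFPneg. The 2 cultures overlapped in this sum, while GFPpos lay above and GFPneg below both.

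**Figure D4:**
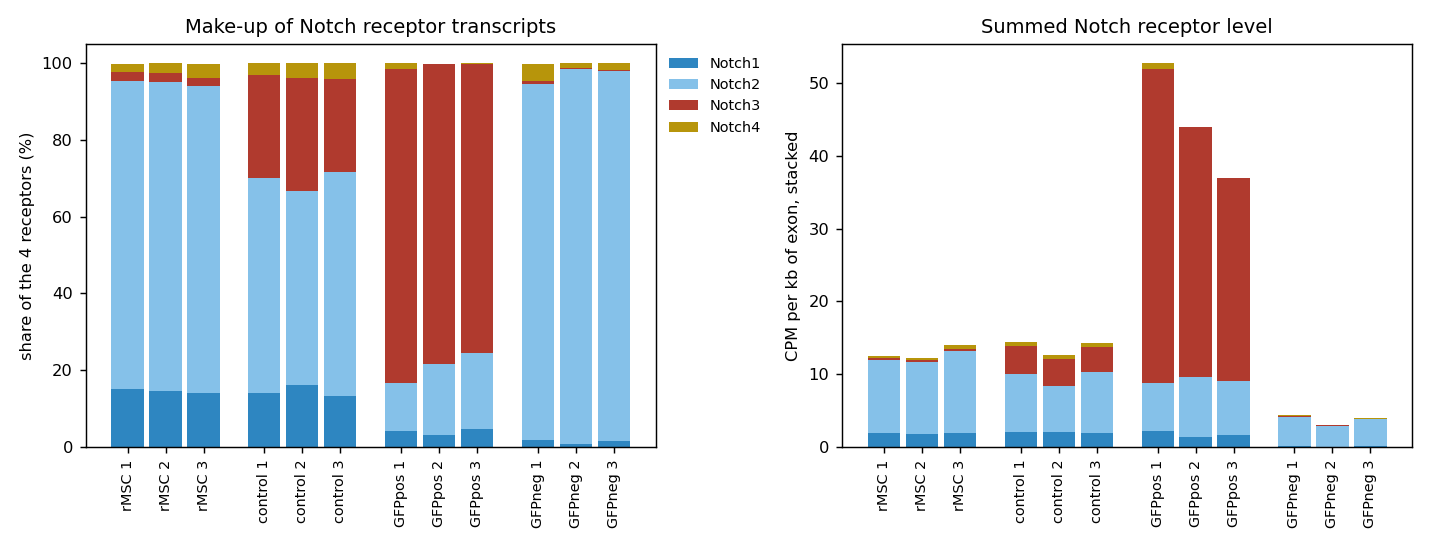
Left, share of Notch1, Notch2, Notch3 and Notch4 in the summed receptor level (CPM per kilobase of exon) of each of the 12 libraries, in stacked bars that reach 100%. Right, the summed level itself in stacked CPM per kilobase of exon. On the left, Notch3 takes 1.94 to 2.21% in rMSC, 24.2 to 29.5% in control and 75.4 to 81.8% in GFPpos, and Notch2 takes most of the rest.

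Markers of mural cells, the pericytes and smooth muscle cells in which Notch3 is known to act, were read beside these levels. The 11 mural markers summed to 2090 to 2230 CPM in rMSC, 2070 to 2140 in control, 1850 to 2950 in GFPpos and 1.21 to 3.5 in GFPneg, and 9 to 11 of them had a count in each stromal library. Acta2 and Pdgfrb together made up most of this sum in the stromal groups, so it says little of the other markers. Single markers differed. Of the 11, 1 rose and 3 fell in rMSC against control (50.1% of all genes changed), 2 rose and 8 fell in rMSC against GFPpos (71.6%), 6 fell in control against GFPpos (68.3%), and 11 rose in GFPpos against GFPneg (77.0%). Rgs5, a pericyte marker, had 0 CPM in all rMSC libraries, 0.240 to 0.647 CPM in control and 34.6 to 90.3 CPM in GFPpos. Cspg4, another pericyte marker, had 336 to 372 CPM in rMSC, 44.1 to 50.8 in control and 33.0 to 103 in GFPpos, and Acta2, smooth muscle actin, had 1060 to 1190 CPM in rMSC, 727 to 792 in control and 404 to 999 in GFPpos. Most of the list went the other way. Every rMSC library lay below every GFPpos library for Rgs5, Myh11, Tagln, Pdgfrb, Mcam, Des, Cnn1, Kcnj8 and Abcc9, and above for Cspg4 and Acta2. The 2 groups did not overlap for 73.9% of all genes. Myh11 had 0.344 to 0.523 CPM in rMSC, 0.0533 to 0.173 in control and 183 to 621 in GFPpos. The sums of the 7 perivascular stroma markers and of 7 osteoblast markers ordered the groups as Notch3 did. The osteoblast sum was 8300 to 8440 CPM in rMSC, 20200 to 20800 in control, 90100 to 132000 in GFPpos and 0.561 to 4.13 in GFPneg. In the stromal groups Cxcl12 made up most of the first sum and Col1a1 most of the second, and single markers differed. In rMSC against control, 3 perivascular markers rose and 3 fell, and 1 osteoblast marker rose and 3 fell (50.1% of all genes changed). Kitl, 1 of those that rose, had 236 to 257 CPM in rMSC and 28.8 to 37.2 in control. The part of these stromal markers or of mural cell numbers in the level of Notch3 and Heyl was not tested.

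Hey1 and Heyl, repressors that Notch signalling switches on, followed different courses. Hey1 was at fresh levels in rMSC and near 0 in control, whereas Heyl was present in GFPpos and next to absent in both cultures. Hey1 had 7.50, 6.83 and 7.25 CPM in rMSC, 0, 0.0288 and 0.0895 CPM in control, 6.46, 5.54 and 6.44 CPM in GFPpos, and 0.0886, 0.287 and 0.149 CPM in GFPneg. All rMSC libraries lay above all GFPpos libraries, and both lay far above control and GFPneg. Control held 8 Hey1 counts in all. Hey1 rose in rMSC against control by 7.49 ± 0.73 on the log2 scale (adjusted p = 1.12e-05), and the ratio of summed CPM was 190.2 (95% interval 96.3 to 441). The log2 value was 6.89 without replicate 1 and 8.84 without replicate 3 of control. Hey1 fell in control against GFPpos (-7.26 ± 0.72, adjusted p = 6.75e-06), with -6.66 and -8.61 without the same libraries. In rMSC against GFPpos the difference was 0.23 ± 0.51 (adjusted p = 0.704). Hey1 rose in GFPpos against GFPneg by 5.11 ± 0.62 (adjusted p = 1.81e-05).

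Heyl had 0, 2 and 0 counts in rMSC, 0, 2 and 0 in control, 8476, 6767 and 6706 in GFPpos, and 2, 0 and 10 in GFPneg. In GFPpos these counts equal 104.9, 123 and 119 CPM. The GFPpos libraries thus stood apart from the other 9, which held 16 Heyl counts between them. The ratio of summed CPM was 8.93e-05 in rMSC against GFPpos (95% interval 1.08e-05 to 0.000323; adjusted p = 1.63e-08) and 8.27e-05 in control against GFPpos (1.00e-05 to 0.000299; adjusted p = 3.06e-08). Without replicate 2 of rMSC, or of control, that culture held 0 Heyl counts. Heyl rose in GFPpos against GFPneg by 11.08 ± 0.51 on the log2 scale (adjusted p = 1.05e-08), and the value was 10.47 without replicate 2 and 12.91 without replicate 3 of GFPneg. Between rMSC and control, with 2 counts each, no difference was detectable. Per kilobase, Hey1 made up 6.57 to 8.80% of the sum of both genes in GFPpos, and 99.7 to 100% in rMSC.

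A further 5 Notch targets were read beside the Hey genes: Hes1, Hes5, Hes7 and Hey2, which are repressors of the same kind, and Nrarp, a feedback inhibitor of the pathway. Hes1 had 15.4, 15.3 and 16.2 CPM in rMSC, 24.4, 23.3 and 26.4 CPM in control, 79.6, 97.3 and 136 CPM in GFPpos, and 1.31, 0.621 and 0.124 CPM in GFPneg. No 2 of the 4 groups overlapped. Hes1 fell in rMSC against GFPpos (-2.74 ± 0.43, adjusted p = 0.000162) and in control against GFPpos (-2.08 ± 0.41, adjusted p = 0.00106). Its difference in rMSC against control did not pass (-0.66 ± 0.40, adjusted p = 0.200), but it did in the fit of those 6 libraries alone (adjusted p = 2.37e-06) and without replicate 3 of GFPneg (0.0373). Hes1 rose in GFPpos against GFPneg by 7.28 ± 0.55, and by 8.12 without replicate 1 of GFPneg.

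Hey2 was at 0 CPM in all rMSC libraries, at 0.187, 0.0863 and 0.149 CPM in control, and at 3.97, 5.69 and 1.43 CPM in GFPpos. It was at least 3.05-fold lower in rMSC than in control (adjusted p = 0.0153) and at least 80.3-fold lower in rMSC than in GFPpos (adjusted p = 0.000326), and it fell in control against GFPpos (-4.70 ± 1.08, adjusted p = 0.00408). It rose in GFPpos against GFPneg by 7.08 ± 1.25, and by 10.98 without replicate 3 of GFPneg.

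Nrarp had 0.359, 0.125 and 0.367 CPM in rMSC, 0 in all control libraries, 24.2, 29.9 and 12.6 CPM in GFPpos, and 10.8, 8.71 and 8.63 CPM in GFPneg. It was at least 6.66-fold higher in rMSC than in control (adjusted p = 0.000583) and at least 521-fold lower in control than in GFPpos (adjusted p = 1.10e-06). It fell in rMSC against GFPpos (-6.28 ± 0.49) and rose in GFPpos against GFPneg (1.24 ± 0.38, adjusted p = 0.0145), the last call being lost without replicate 2 of GFPpos (0.0621).

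Hes7 stayed at or under 0.620 CPM in every library and was at 0 in GFPneg. It was at least 10.7-fold higher in GFPpos than in GFPneg (adjusted p = 5.16e-05) and fell in rMSC against GFPpos (-2.23 ± 0.62, adjusted p = 0.00999). In rMSC against control it fell with an adjusted p of 0.0481, and this call was lost when any 1 of the 6 culture libraries was left out (0.0673 to 0.160), and without any 1 of the GFPneg libraries (0.0628 to 0.0679) or replicate 3 of GFPpos (0.0542). Hes5 stayed at or under 0.219 CPM and passed in none of the 4 comparisons (lowest adjusted p = 0.0651).

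**Figure D5:**
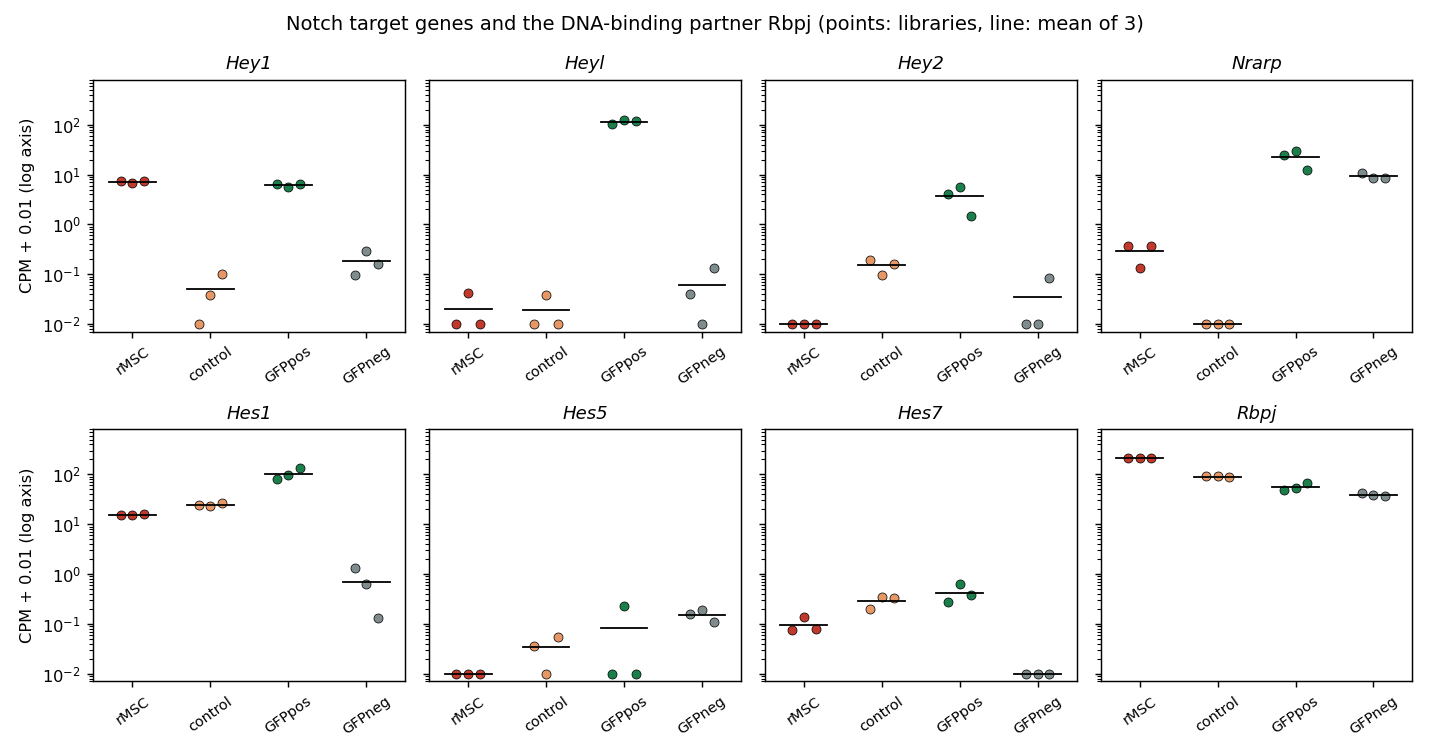
CPM + 0.01 on a log axis for 7 Notch target genes and Rbpj, with a point for each library and a line at the mean of the 3 libraries of each group. Hey1 is high in rMSC and GFPpos, Heyl only in GFPpos (104.9 to 123 CPM), Nrarp in both fresh groups, and Rbpj is highest in rMSC (211 to 217 CPM).

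The rest of the pathway was read from a list of 46 genes, of which 44 were tested. In rMSC against control, 9 rose, 13 fell and 22 did not pass, with a median log2 fold change of -0.14. In rMSC against GFPpos, 20 rose and 13 fell, with a median of 0.29. In control against GFPpos, 21 rose and 10 fell, with a median of 0.28. In GFPpos against GFPneg, 23 rose and 10 fell, with a median of 0.60. These shares, 50, 75.0, 70.5 and 75.0%, stand near those of all genes tested (50.1, 71.6, 68.3 and 77.0%).

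Rbpj, the DNA-binding partner of all 4 receptors, was higher in the cultures than in fresh stroma. It had 217, 212 and 211 CPM in rMSC, 91.6, 91.8 and 88.1 CPM in control, 48.3, 53.7 and 68.5 CPM in GFPpos, and 41.8, 39.3 and 37.0 CPM in GFPneg. No 2 groups overlapped. Rbpj rose in rMSC against control (1.24 ± 0.11, adjusted p = 5.22e-06), in rMSC against GFPpos (1.91 ± 0.11, adjusted p = 8.30e-08), in control against GFPpos (0.67 ± 0.11, adjusted p = 0.000244) and in GFPpos against GFPneg (0.53 ± 0.11, adjusted p = 0.000952). Among its co-activators, Maml3 fell in rMSC against control (-1.52 ± 0.28) and rose in control against GFPpos (1.79 ± 0.28) and in GFPpos against GFPneg (1.41 ± 0.28). Maml2 rose in rMSC against GFPpos (2.67 ± 0.33), in control against GFPpos (2.28 ± 0.33) and in GFPpos against GFPneg (7.44 ± 0.53, and 8.84 without replicate 1 of GFPneg).

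The Delta-like proteins Dlk1 and Dlk2 are held to act on Notch without the part that activates the receptor, and each was high in 1 of the cultures. Per kilobase of exon, Dlk2 averaged 11.3 CPM in rMSC, where Jag1 averaged 19.7, and Dlk1 averaged 17.2 CPM in control, where Jag1 averaged 5.67. Dlk1 had 0.229, 0.469 and 0.649 CPM in rMSC, 92.4, 101 and 97.8 CPM in control, 0, 0.438 and 0 CPM in GFPpos, and 0 in GFPneg. It fell in rMSC against control (-7.74 ± 0.77, adjusted p = 4.57e-05) and rose in control against GFPpos (9.53 ± 0.87, adjusted p = 1.43e-05), where the value was 15.7 without replicate 2 of GFPpos and 8.80 without replicate 1. Dlk2 had 23.3, 23.7 and 24.4 CPM in rMSC, 0.706, 0.848 and 0.716 CPM in control, 0.371, 0 and 0 CPM in GFPpos, and 0 in GFPneg. It rose in rMSC against control (4.97 ± 0.89, adjusted p = 0.00157) and in rMSC against GFPpos (7.39 ± 1.02, adjusted p = 0.000178; 13.7 without replicate 1 of GFPpos). In GFPpos against GFPneg Dlk2 was called (adjusted p = 0.0241, at least 3.16-fold), but all its counts there were in replicate 1 of GFPpos, and the call was also lost without replicate 2 of GFPneg (0.0503). In control against GFPpos it rose by 2.42 ± 0.92 (adjusted p = 0.0421), and by 8.69 without replicate 1 of GFPpos. That call was lost without any 1 of the 6 culture libraries (0.0766 to 0.0926) or without replicate 2 or 3 of GFPpos (0.0705 and 0.0574). Dll3 and Dner stayed at or under 0.545 CPM and were not tested.

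Fringe enzymes add sugars to the receptors and change which ligands they answer to. Mfng had 0 CPM in all 6 culture libraries, 3.92, 3.77 and 2.69 CPM in GFPpos and 8.12, 7.16 and 7.76 CPM in GFPneg. It was at least 75.1-fold lower in rMSC and at least 81.2-fold lower in control than in GFPpos, and it fell in GFPpos against GFPneg (-1.15 ± 0.29, adjusted p = 0.00855). Lfng averaged 5.46 ± 1.18 CPM in rMSC, 5.98 ± 0.51 in control, 46.1 ± 11.1 in GFPpos and 45.0 ± 4.51 in GFPneg. It fell in rMSC against GFPpos (-3.08 ± 0.21) and in control against GFPpos (-2.95 ± 0.20). The 5 pan-haematopoietic markers, all with a count in every fresh library, summed to 4.98 to 5.96 CPM in rMSC, 14.5 to 15.9 in control, 125 to 271 in GFPpos and 52.4 to 78.0 in GFPneg. The part of blood-cell RNA in the levels of Mfng, Lfng and Nrarp in the fresh libraries was not tested. Rfng fell in rMSC against control (-0.35 ± 0.07). Pofut1, which adds the first sugar, rose in rMSC against control (0.54 ± 0.07) and fell in GFPpos against GFPneg (-0.94 ± 0.07).

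Genes for the cutting of the receptor changed in both directions. Furin, which cuts the receptor during its transport, averaged 153 ± 4.18 CPM in rMSC, 269 ± 8.90 in control and 124 ± 10.96 in GFPpos. It fell in rMSC against control (-0.81 ± 0.07) and rose in control against GFPpos (1.12 ± 0.07). Psenen, a part of gamma-secretase, rose in rMSC against control (0.65 ± 0.12). Aph1b and Aph1c, alternative parts of the same complex, rose in GFPpos against GFPneg (6.08 ± 0.62 and 4.63 ± 0.41), and Aph1b by 8.11 without replicate 1 of GFPneg. Aph1b rose in rMSC against GFPpos (1.51 ± 0.46). Aph1c fell in rMSC against GFPpos (-0.94 ± 0.35, adjusted p = 0.0299) and in control against GFPpos (-1.14 ± 0.35, adjusted p = 0.0133). The first was lost without replicate 2 or 3 of GFPpos or replicate 1 or 3 of rMSC (0.0792 to 0.0974), and the second without replicate 3 of control (0.0547).

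Genes for ligand uptake, receptor turnover and repression were also counted by subgroup. Neurl3 fell in rMSC against GFPpos (-6.24 ± 1.07, and -11.05 without replicate 3 of rMSC) and in control against GFPpos (-5.48 ± 1.02). Mib1, a ubiquitin ligase needed for ligand function, rose in control against GFPpos (0.95 ± 0.23). Neurl1b and Neurl1a rose in GFPpos against GFPneg (4.78 ± 0.81 and 4.68 ± 1.21), by 5.43 without replicate 3 and 9.25 without replicate 2 of GFPneg. Neurl1b fell in rMSC against GFPpos (-1.90 ± 0.70, adjusted p = 0.0303), a call lost without any 1 of the rMSC libraries or without replicate 1 or 2 of GFPpos (0.0591 to 0.0936). Of 9 turnover genes, 3 rose and 1 fell in rMSC against control (44.4%, beside 50.1% of all genes).

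Dtx4, a ubiquitin ligase of the Deltex family, averaged 8.51 ± 0.63 CPM in rMSC, 65.2 ± 1.41 in control, 70.1 ± 12.5 in GFPpos and 0.653 ± 0.442 in GFPneg. It fell in rMSC against control (-2.94 ± 0.29, adjusted p = 1.41e-05) and in rMSC against GFPpos (-3.04 ± 0.30), and rose in GFPpos against GFPneg (6.78 ± 0.37, and 7.45 without replicate 1 of GFPneg). In control against GFPpos it did not pass (-0.10 ± 0.27, adjusted p = 0.744). Dtx3l rose in rMSC against control (0.99 ± 0.15) and in rMSC against GFPpos (2.05 ± 0.16), and Dtx3 in control against GFPpos (1.10 ± 0.07). Numbl, a relative of the Notch inhibitor Numb, rose in control against GFPpos (1.42 ± 0.24) and in GFPpos against GFPneg (5.66 ± 0.31). Among repressors that act with Rbpj, Hdac1 fell in rMSC against control (-0.63 ± 0.08) and in rMSC against GFPpos (-0.58 ± 0.08). Hdac1 and Spen fell in GFPpos against GFPneg (-0.78 ± 0.08 and -0.63 ± 0.10).

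The genes most like Jag1, Notch3 and Heyl, which had the highest mean CPM of their kind over the 12 libraries, were found by Pearson's r of log2 CPM over the 12 libraries, which mostly reflects the 4 group levels. Notch3 and Heyl have that rank from GFPpos: per kilobase, Notch2 was the highest receptor in rMSC, control and GFPneg, and Hey1 was above Heyl there. For Jag1 they were Cpe (r = 0.998), Slit2 (0.998) and Kank1 (0.997). Slit2, a secreted guidance protein, averaged 621 ± 11.7 CPM in rMSC, 105 ± 1.63 in control, 102 ± 24.9 in GFPpos and 0.00414 ± 0.00718 in GFPneg. For Notch3 they included Bfsp1 (0.995) and Sncg (0.993). Sncg, a synuclein, averaged 0.571 ± 0.0629 CPM in rMSC, 8.49 ± 1.29 in control, 39.9 ± 16.3 in GFPpos and 0.00985 ± 0.0171 in GFPneg. For Heyl they were Tmem182 (0.994), Adprhl1 (0.993) and Btla (0.990), and Btla had 10.1 ± 1.35 CPM in GFPpos and 0 in the other 9 libraries.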

How the data were processed

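Per the submitters' processing notes, the authors used STAR 2.4.1c, featureCounts 1.4.6 and the build mm10, and the extract protocol names Ensembl release 77 of GRCm38. Libraries were made with a SMART-Seq v4 kit and Nextera XT and read as 150 bp single ends, per the labels. What was deposited is a table of raw read counts by gene symbol for each library, all of them whole numbers. The 27 symbols that had turned into dates were left out (0.183 to 0.369% of counts). Each library held 60507051 to 85353566 counts, and intervals and floors cover counting error only, because there were no molecular identifiers and reads can be copies of 1 molecule.

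Counts were tested in R 4.3.3 with edgeR 4.0.16 (TMM factors, filterByExpr, quasi-likelihood F-test) in 1 fit of 4 group means over 12 libraries, with Benjamini-Hochberg adjustment over 15163 genes and a threshold of 0.05. The fit was also run on simulated counts, and the outcome is not reported here. Its spread is shared by fresh and cultured groups. The replicate numbers of the labels were not used as pairs. Gene positions and exon lengths came from the GENCODE annotation of GRCm38, and promoters from RefSeq's GRCm38.p6. CPM were computed from the counts with TMM factors, and per kilobase by the summed length of the exons. Ratios of summed CPM have exact 95% intervals.

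The 10 genes, the pathway list and the marker lists were chosen with earlier results of these data known. The 10 genes were named in every comparison. From the list of 46 other pathway genes, the text names up to 2 per subgroup and comparison past the threshold, those of the largest absolute log2 change, and all other ligands and targets. The genes of like pattern were the 3 with the highest Pearson's r (log2 CPM, prior count 2), leaving out predicted genes. Some genes that these rules pick are not reported here. The alternatives were DESeq2 1.42.0, RLE factors, no low-count filter, a fit of each pair of groups on its own, a replicate block and each library left out in turn. Leaving out replicate 1 of both fresh groups together was added after seeing the data.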

Additional observations from a re-analysis of the deposited data

How the results depend on the processing

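Of the 40 results (10 genes in 4 comparisons), 23 kept their direction and their side of the threshold under each of the 18 alternatives that gave a value. The number of the 10 genes called was 3 to 4 in rMSC against control, 4 to 5 in rMSC against GFPpos, 3 to 6 in control against GFPpos and 6 to 7 in GFPpos against GFPneg when 1 library was left out, beside 4, 4, 5 and 6 with all. In control against GFPpos it was 3 without any 1 of the control libraries or without replicate 2 or 3 of rMSC. The replicate numbers were not taken as pairs, since the labels name no shared source. Deviations from the group means correlated at 0.160, 0.151 and 0.0174 between same-numbered libraries of GFPpos and GFPneg. For other numbers they correlated at -0.169 to 0.0415. In the other comparisons, same-numbered libraries correlated at -0.0249 to 0.0209. Whether same-numbered fresh libraries share a source thus cannot be told. With the replicate number as a block, 3 genes were called in control against GFPpos, where Jag2 (adjusted p = 0.0551) and Dll4 (0.106) no longer passed and Dll1 turned to 0.27. In GFPpos against GFPneg, 7 were called with the block, Dll1 being added (0.0408).

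The log2 fold changes that turned sign were of genes that had not passed, and their ranges with 1 library left out were as follows. In rMSC against control, Heyl, with 2 counts in each group, ran from -2.65 (without replicate 2 of rMSC) to 2.74. In rMSC against GFPpos, Dll4 ran from -8.86 to 2.72 (without replicate 1 of GFPpos), Notch1 from -0.057 (without replicate 2 of GFPpos) to 0.30, and Notch4 from -0.077 (without replicate 3 of GFPpos; -0.074 without replicate 2) to 3.82. In control against GFPpos, Dll1 ran from -1.22 to 1.30 and Notch2 from -0.035 to 0.15, turning without replicate 1 of GFPpos (Notch2 also without replicate 1 or 3 of control). In GFPpos against GFPneg, Jag2 ran from -0.023 (without replicate 2 of GFPpos) to 3.40, and Dll4 from -7.47 and Notch4 from -1.92 (both without replicate 1 of GFPpos) to 3.46 and 2.39. Leaving out replicate 1 of both fresh groups gave -0.99 for Notch4 in GFPpos against GFPneg and, in control against GFPpos, 1.30 for Dll1 and -0.035 for Notch2. The cause was not tested. DESeq2 gave no adjusted p for Notch4, and the 2-group fits left out Dll4 in 3 comparisons, Jag2 in 2 and Heyl in 1 for low counts. RLE factors moved the median of all genes by 0.13 in GFPpos against GFPneg, and every call among the 10 genes held with them.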
